A study of Mus musculus with 17 samples.

Results

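The genes described are App, which encodes the amyloid precursor protein, its paralogs Aplp1 and Aplp2, and 5 genes of the enzymes that cut these proteins: Adam10, Bace1, Bace2, Psen2 and Ncstn. They were chosen by gene name, 8 genes of the 55385 in the deposited tables. Their RNA was measured in the hippocampus of 17 untreated mice. WT mice (n = 6) were wild-type C57BL/6J, Dp16 mice (n = 6) carried a duplicated segment of chromosome 16, and Dp16_2xIFNRs mice (n = 5) carried that duplication with the interferon receptor genes inside it returned to the normal dosage. The mice were 17.1 to 18.0 weeks old in the first 2 groups and 17.7 to 18.0 weeks old in the last, and each group held 3 females, with 3 males in WT, 3 in Dp16 and 2 in Dp16_2xIFNRs. The labels give no strain background for the mice with the duplication. The duplication models Down syndrome through the mouse counterparts of genes on the human chromosome that is present in an extra copy, so App and Bace2 are present in 3 copies in both duplication groups, and the other 6 genes lie on other chromosomes.

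App is a single-pass membrane protein that is abundant in neurons and is cut in steps by membrane proteases called secretases. A cut by an alpha-secretase, chiefly Adam10, releases the outer domain and destroys the amyloid-beta stretch, whereas a cut by the beta-secretase Bace1 leaves a stub from which gamma-secretase frees amyloid-beta. Gamma-secretase is a complex with a presenilin such as Psen2 as its catalytic subunit and nicastrin (Ncstn) as the subunit that receives substrates. Bace2, a relative of Bace1, can cut within the amyloid-beta stretch, and an extra copy of App is a known cause of early amyloid deposition in people. Aplp1 and Aplp2 are processed by the same enzymes but have no amyloid-beta stretch.

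Positions are those of GENCODE M21 on GRCm38. App (ENSMUSG00000022892.11) spans chr16:84949685-85173766 on the minus strand, 9.41 Mb inside the start of the duplicated segment. Bace2 (ENSMUSG00000040605.7) spans chr16:97356742-97442936 on the plus strand, 0.52 Mb before the segment ends. Aplp1 (ENSMUSG00000006651.8) lies at chr7:30434982-30445535, Aplp2 (ENSMUSG00000031996.17) at chr9:31149557-31211815, Bace1 (ENSMUSG00000032086.12) at chr9:45838580-45864399 and Adam10 (ENSMUSG00000054693.14) at chr9:70678997-70780229. Psen2 (ENSMUSG00000010609.15) lies at chr1:180227004-180263438 and Ncstn (ENSMUSG00000003458.12) at chr1:172066013-172082795. Every one of the 8 is protein coding, and all 8 passed the filter on low counts.

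The upstream sequences of App and its paralogs are shown as a description of the precursor family, with no test against the change in level. They come from the RefSeq promoter table (GRCm38.p6), trimmed to the bases that lie outside the gene's own exons, and run 5′ to 3′ on the gene's strand, which is the minus strand for all 3. Capitals mark GGGCGG, the GC box bound by Sp family factors, searched on both strands. The windows are chr16:85173767-85173957 for App, chr7:30445583-30445832 for Aplp1 and chr9:31211849-31212098 for Aplp2.
App: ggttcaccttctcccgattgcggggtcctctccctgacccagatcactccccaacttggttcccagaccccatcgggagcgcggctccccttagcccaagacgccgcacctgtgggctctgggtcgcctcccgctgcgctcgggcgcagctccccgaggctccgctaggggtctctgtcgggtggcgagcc
Aplp1: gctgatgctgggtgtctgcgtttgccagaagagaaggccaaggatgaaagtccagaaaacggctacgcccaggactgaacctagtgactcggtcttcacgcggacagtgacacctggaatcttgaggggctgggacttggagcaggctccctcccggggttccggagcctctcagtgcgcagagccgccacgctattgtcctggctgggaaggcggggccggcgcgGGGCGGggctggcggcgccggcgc
Aplp2: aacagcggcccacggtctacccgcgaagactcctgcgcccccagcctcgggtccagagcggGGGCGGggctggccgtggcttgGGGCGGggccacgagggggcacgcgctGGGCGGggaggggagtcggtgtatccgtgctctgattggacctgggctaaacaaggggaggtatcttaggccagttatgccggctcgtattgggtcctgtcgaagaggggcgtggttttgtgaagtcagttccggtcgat

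The 191 bases of App held no GGGCGG, the 250 bases of Aplp1 held 1 and the 250 bases of Aplp2 held 3. Of 32851 promoters of the table, 23.1% held it in a window of 191 bases and 32.7% in one of 250 bases. TATAAA, the core of the TATA box, was in none of the 3 windows and in 8.8% and 12.4% of the promoters. The 3 windows were rich in G and C, at 69.6%, 66.0% and 66.4%, against a median of 52.4% over the table. In windows not printed here, GGGCGG was found 0 times for Ncstn (204 bases), 2 times for Psen2 and 3 times for Adam10 (250 bases each). None of these genes was called between genotypes. Of the promoters, 25.4% held it in a window of 204 bases. A match describes letters only, and its absence says nothing on whether a factor binds there.

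Total counts per library lay between 30.4 and 33.1 M (M, mega) in all groups. The 10 markers of hippocampal neurons summed to 3484 to 4848 counts per M counts (CPM) in WT, 3801 to 4716 in Dp16 and 3591 to 4443 in Dp16_2xIFNRs, and none was at 0. Choroid plexus markers, 6 genes such as Ttr, varied most, from 54.2 to 6385 CPM in WT, 58.3 to 4683 in Dp16 and 90.5 to 4059 in Dp16_2xIFNRs. In each group 1 library was far below the rest in them: WT replicate 6, Dp16 replicate 6 and Dp16_2xIFNRs replicate 5. Meninges markers (5 genes) summed to 75.1 to 112 CPM in WT, 79.8 to 133 in Dp16 and 98.9 to 152 in Dp16_2xIFNRs, and thalamus markers (4 genes) reached 301 CPM in WT, and at most 65.6 in the other groups. No gene of these lists was called between genotypes. In bulk tissue, fewer cells of a type and less RNA per cell cannot be told apart.

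By the deposited RPKM (reads per kilobase and per M reads), the precursor family was far above the secretases in every group. In WT the means were 466 ± 24.98 for Aplp1, 215 ± 4.07 for App and 172 ± 8.88 for Aplp2 (SD, n = 6). The secretases followed with 22.7 ± 1.32 for Adam10, 19.2 ± 1.17 for Ncstn, 17.7 ± 0.583 for Bace1, 5.95 ± 0.197 for Psen2 and 0.501 ± 0.184 for Bace2.

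This order of mean RPKM held in all 3 genotypes, and most neighbours in it had ranges that did not overlap. The exceptions were Ncstn and Bace1, whose ranges overlapped in each genotype, and Adam10 and Ncstn, whose ranges overlapped in WT. The order rests on the gene lengths behind RPKM, and ranges between mice do not cover an error in them. The deposited values imply 8167 bases for App and 2343 for Aplp1. By CPM, which uses no length, App had the higher WT mean, 1753 against 1092 for Aplp1. The distances changed where App was involved. The mean RPKM of Aplp1 was 2.17 times that of App in WT, 1.38 times in Dp16 and 1.35 times in Dp16_2xIFNRs, and App stood at 1.25, 1.91 and 1.89 times the mean of Aplp2. App had the highest WT RPKM of all 384 genes of the duplicated segment, ahead of Sod1, the cytosolic superoxide dismutase, at 201 RPKM, and Bace2 ranked 97th.

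**Figure D1:**
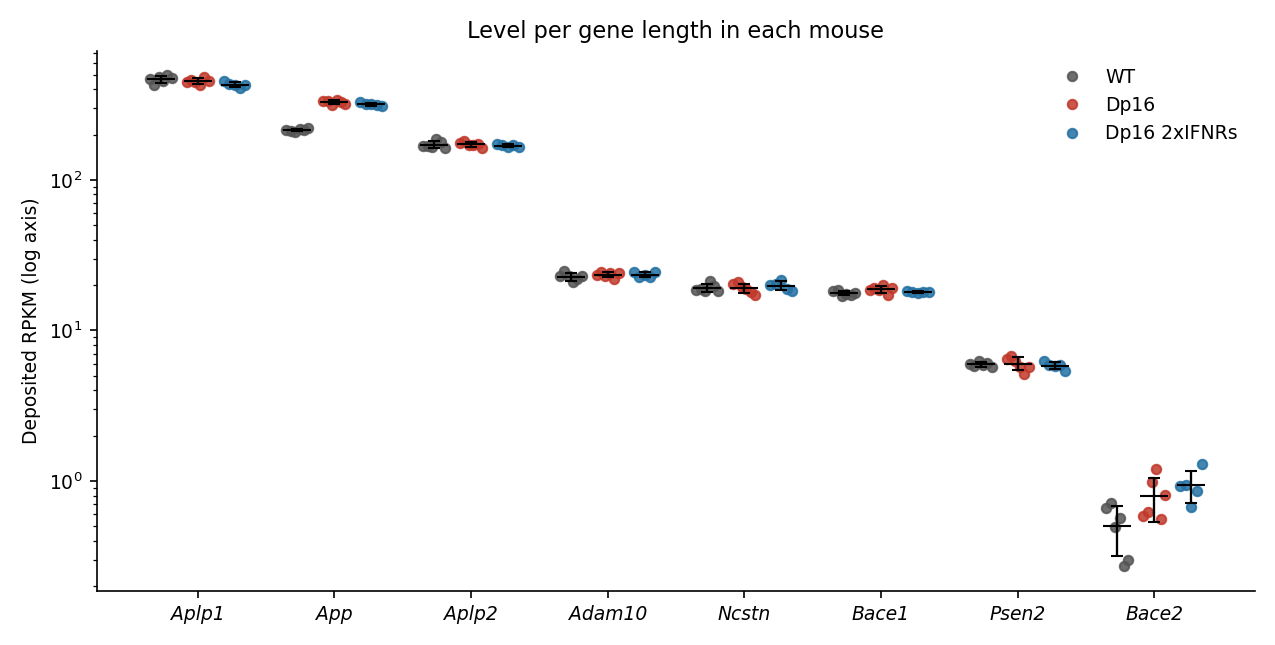
Deposited RPKM of the 8 genes in each mouse (log axis), by genotype, with the group mean and SD as black bars. The order is Aplp1, App, Aplp2, Adam10, Ncstn, Bace1, Psen2, Bace2 in every genotype, and the App points of both duplication groups sit above those of WT.

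App was higher in both duplication groups than in WT. It stood at 1710 CPM in the lowest WT mouse, with a median of 1735 and a highest value of 1846. In Dp16 the lowest value was 2530 CPM, the median 2730 and the highest 2859, and the 5 Dp16_2xIFNRs mice had 2715, 2510, 2565, 2551 and 2585 CPM. Every mouse with the duplication was above every WT mouse (6 of 6 Dp16, 5 of 5 Dp16_2xIFNRs), while the Dp16 and Dp16_2xIFNRs mice overlapped. The log2 fold change against WT was 0.63 ± 0.05 (SE) in Dp16, with a 95% interval of 0.54 to 0.73, a fold of 1.55 and an adjusted p of 1.37e-07 in edgeR's quasi-likelihood test with Benjamini-Hochberg adjustment over all 18983 tested genes. In Dp16_2xIFNRs it was 0.56 ± 0.05 (0.46 to 0.66, 1.48-fold, adjusted p = 9.32e-07 in edgeR).

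With the interferon receptor genes back at the normal dosage, App was not called different from Dp16. Dp16_2xIFNRs against Dp16 gave a log2 fold change of -0.07 ± 0.05, with an interval of -0.17 to 0.03 (edgeR adjusted p = 0.586). The means were 2585 ± 77.6 CPM (SD, n = 5) and 2719 ± 108 CPM (SD, n = 6), against 1753 ± 49.0 CPM in WT. Both comparisons with WT share the same 6 WT mice.

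App was the only one of the 8 genes that edgeR called in either comparison with WT. That is 1 of 8 in Dp16 against WT, where 0.537% of all tested genes were called, and 1 of 8 in Dp16_2xIFNRs against WT, where 0.980% were. With the mean of both duplication groups set against WT, edgeR again called 1 of 8, beside 1.04% of all tested genes. Of the 122 tested genes of the duplicated segment, edgeR called 50.8%, 54.1% and 54.9% in these 3 comparisons. Of the tested genes outside the segment, it called 0.212%, 0.636% and 0.689%. A call such as that of App was thus common in the segment. DESeq2 called 1, 2 and 2 of 8 in these 3 comparisons, App and in the last 2 also Bace2, beside 1.13%, 3.33% and 2.64% of all genes. Limma-voom called App alone in each, beside 0.543%, 0.896% and 1.09%. EdgeR with no filter on low counts also called App and Bace2 in the last 2, beside 1.17% and 0.901% of genes. An unadjusted edgeR p under 0.05 was found for 3, 3 and 2 of the 8, against 9.58%, 17.04% and 14.6% of all genes. These were App and Bace2 in each, with Bace1 in Dp16 and Aplp1 in Dp16_2xIFNRs. Between Dp16_2xIFNRs and Dp16, edgeR called 0 of 8, with 0.0158% called over all genes, and none of the 8 had an unadjusted p under 0.05, against 10.5% of all genes. DESeq2 and limma-voom called 0 of 8 there as well, beside 0.0316% and 0.0158% of all genes.

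**Figure D2:**
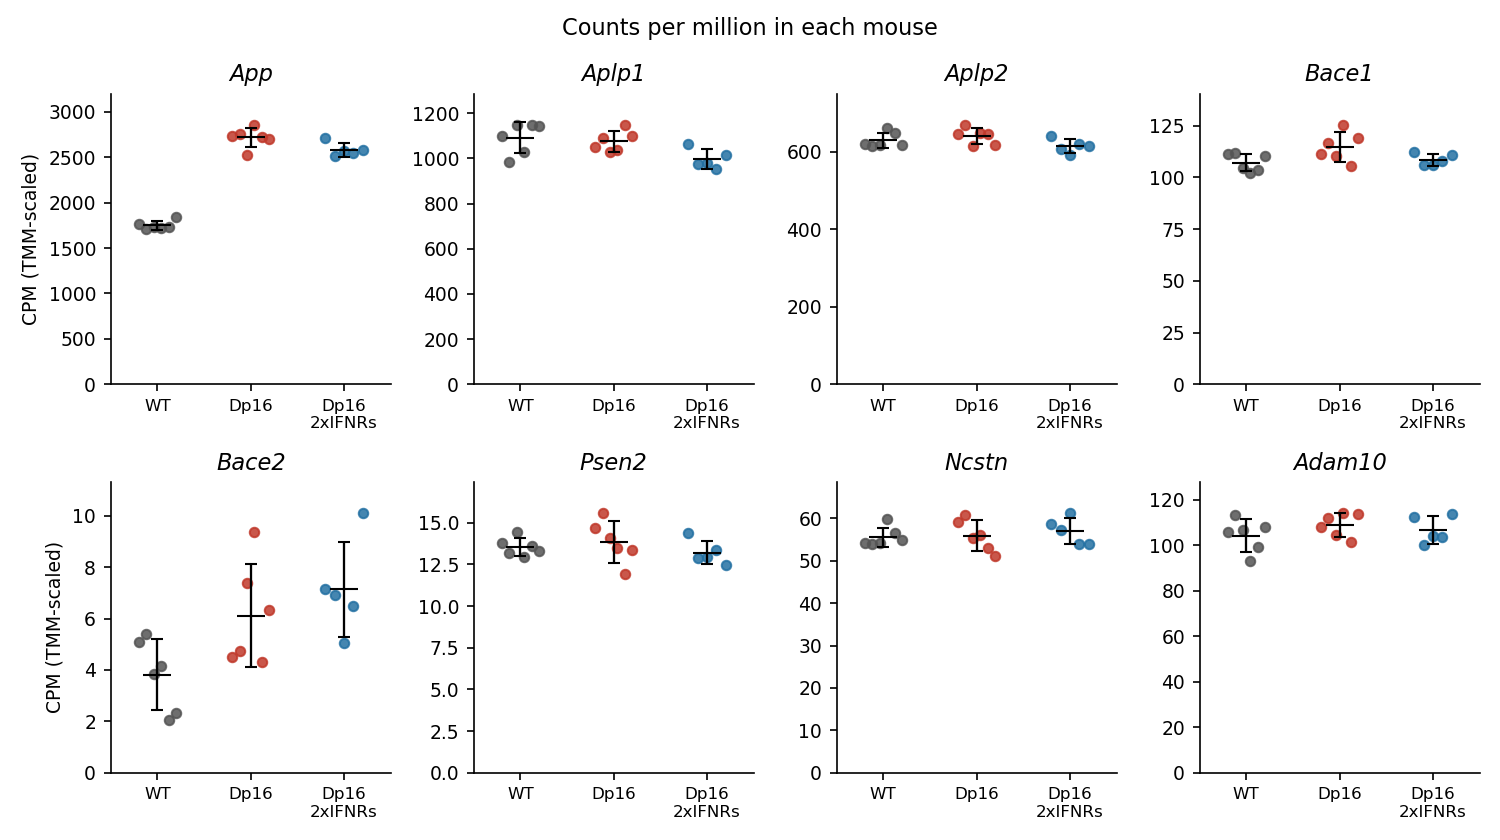
TMM-scaled counts per M counts of each gene in each mouse, by genotype (linear axes from 0), with the mean and SD as black bars. App separates both duplication groups from WT, Bace2 is higher with overlap, and the points of the other 6 genes overlap between genotypes.

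A gene on the opposite strand, Gm49227, shares 113 exon bases with App, and the labels do not give the strand setting of the counting. Gm49227 held counts equal to 3.12% of those of App over the 17 libraries, and rose by a log2 fold change of 0.58 in Dp16 and 0.48 in Dp16_2xIFNRs (edgeR adjusted p = 0.0015 and 0.0130). Reads of the 2 genes in the shared bases cannot be told apart without strand.

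Neither paralog of App was called. Aplp1, the paralog that is restricted to the nervous system, had 985 to 1148 CPM in WT with a median of 1121, 1028 to 1150 CPM in Dp16 with a median of 1070, and 1066, 977, 978, 954 and 1014 CPM in the 5 Dp16_2xIFNRs mice. The groups overlapped, with 3 of the 5 Dp16_2xIFNRs mice below all WT mice. The log2 fold change of Aplp1 in Dp16_2xIFNRs against WT was -0.13 ± 0.05 (95% interval -0.24 to -0.02), with an adjusted p of 0.238 in edgeR. In Dp16 against WT it was -0.02 ± 0.05 (-0.13 to 0.09).

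Aplp2, the widely expressed paralog, lay between 615 and 661 CPM in WT, 614 and 669 in Dp16, and 591 and 639 in Dp16_2xIFNRs. Its log2 fold changes against WT were 0.02 ± 0.04 in Dp16 (-0.06 to 0.11) and -0.03 ± 0.04 in Dp16_2xIFNRs (-0.12 to 0.05). Each interval of the paralogs lay below the log2 value of 0.58 that a 1.5-fold change has.

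With App higher and its paralogs not called, App made up more of the family's summed RPKM in mice with the duplication. This share mainly restates the rise of App and is no separate finding. In Dp16_2xIFNRs it also holds the lower mean RPKM of Aplp1, 429 against 466 in WT, a difference that was not called. Its level rests on the gene lengths behind RPKM. Its share was 25.2% ± 0.777 of the summed RPKM of App, Aplp1 and Aplp2 in WT, 34.5% ± 0.968 in Dp16 and 34.8% ± 0.347 in Dp16_2xIFNRs (SD). In WT the share ran from 24.2% to 26.3% and in Dp16 from 33.4% to 36.1%. The 5 Dp16_2xIFNRs mice had 34.6%, 34.6%, 35.2%, 35.2% and 34.5%. The duplication groups did not overlap with WT and overlapped with each other. The difference from WT was 9.25 percentage points in Dp16 (two-sided exact permutation test p = 0.00216, adjusted 0.0130 by Benjamini-Hochberg over 12 tests of 4 ratios). For Dp16_2xIFNRs it was 9.59 points (exact permutation p = 0.00433, adjusted 0.0130). These p-values are the smallest that 6 against 6 and 5 against 6 mice allow. Dp16_2xIFNRs and Dp16 differed by 0.347 points (exact permutation p = 0.481, adjusted 0.577).

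The RNA of App was likewise higher relative to that of Bace1, the beta-secretase, which mainly restates the same rise. The ratio of App to Bace1 RPKM was 12.1 ± 0.464 in WT, 17.6 ± 0.913 in Dp16 and 17.7 ± 0.288 in Dp16_2xIFNRs (SD). Again no mouse with the duplication overlapped with WT (differences 5.46 and 5.53, exact permutation p = 0.00216 and 0.00433, adjusted 0.0130 for both). The ratio of Adam10 to Bace1, which compares the main alpha-secretase with the main beta-secretase, was 1.28 ± 0.0543 in WT, 1.25 ± 0.0278 in Dp16 and 1.30 ± 0.0426 in Dp16_2xIFNRs. Its differences from WT were -0.0294 and 0.0141, with exact permutation p of 0.251 and 0.645 (adjusted 0.335 and 0.704).

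**Figure D3:**
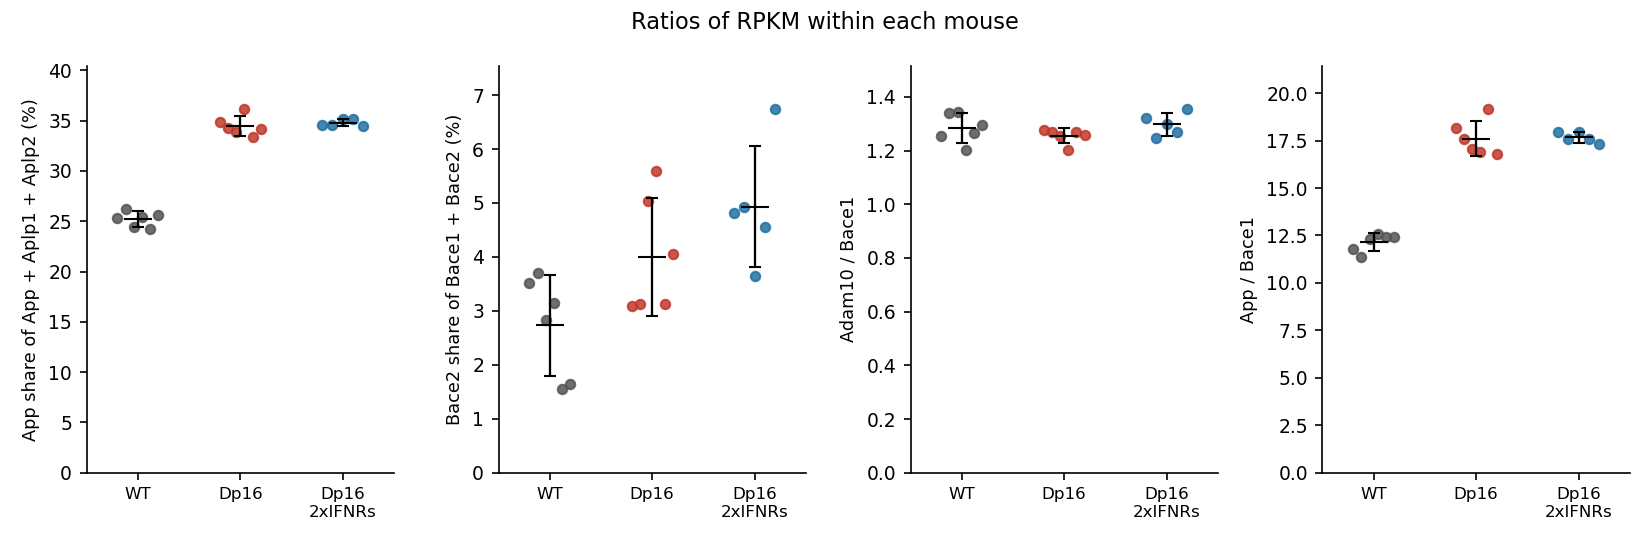
Ratios of deposited RPKM within each mouse, by genotype, with the mean and SD as black bars (axes from 0). The App share of its family and the App to Bace1 ratio separate both duplication groups from WT, the Bace2 share overlaps, and the Adam10 to Bace1 ratio lies between 1.20 and 1.35 in all mice.

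Bace2, the second gene of the 8 in the duplicated segment, had higher means in the duplication groups, but edgeR did not call it. It is a rare transcript here, with 66 to 315 counts per library. The WT mice had 2.05 to 5.41 CPM with a median of 4.01, the Dp16 mice 4.31 to 9.38 CPM with a median of 5.54, and the 5 Dp16_2xIFNRs mice 7.15, 6.93, 5.05, 6.48 and 10.1 CPM. The groups overlapped: 3 of 6 Dp16 mice and 4 of 5 Dp16_2xIFNRs mice were above all WT mice. The log2 fold change was 0.72 ± 0.24 in Dp16 against WT (95% interval 0.22 to 1.22, adjusted p = 0.302 in edgeR). In Dp16_2xIFNRs against WT it was 0.88 ± 0.25 (0.37 to 1.40, adjusted p = 0.0905 in edgeR).

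With the mean of both duplication groups against WT, the Bace2 log2 fold change was 0.80 ± 0.21 (0.36 to 1.25, adjusted p = 0.0826 in edgeR). DESeq2 called Bace2 in Dp16_2xIFNRs against WT (adjusted p = 0.0163) and in that pooled comparison (0.00756), but not in Dp16 against WT. EdgeR with no filter on low counts made the same 2 calls (adjusted p = 0.0103 and 0.00558). Dp16_2xIFNRs against Dp16 gave 0.16 ± 0.24 (edgeR adjusted p = 0.823). That Bace2 value ranged from 0.04, without Dp16 replicate 1, to 0.36, without Dp16 replicate 4. It was 0.05 without Dp16 replicate 2 or Dp16_2xIFNRs replicate 5, 0.11 without Dp16 replicate 5 and 0.25 without Dp16_2xIFNRs replicate 3. With females only it was 0.54 and with males only -0.21, and edgeR called none of these.

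Of the 3 libraries lowest in choroid plexus markers, WT replicate 6 had the second lowest WT level, 2.33 CPM, and Dp16_2xIFNRs replicate 5 the highest of its group, 10.1 CPM, while Dp16 replicate 6, at 6.35 CPM, lay inside the range of its group. Without these 3 libraries, the Bace2 log2 fold changes were 0.58 in Dp16, 0.66 in Dp16_2xIFNRs and 0.62 in the pooled comparison (edgeR adjusted p = 0.464, 0.270 and 0.247). The App values without them were 0.65, 0.57 and 0.61. With the mean level of the choroid plexus markers as a covariate in all 17 libraries, the Bace2 values were 0.70, 0.86 and 0.78 (edgeR adjusted p = 0.289, 0.0791 and 0.0748).

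Bace1 differed little between the groups and was not called. It had 102 to 112 CPM in WT with a median of 107, 106 to 125 CPM in Dp16 with a median of 114, and 112, 106, 106, 108 and 111 CPM in Dp16_2xIFNRs. In Dp16, 3 of 6 mice were above all WT mice, and the ranges overlapped. The log2 fold change was 0.10 ± 0.04 in Dp16 against WT (95% interval 0.01 to 0.19, adjusted p = 0.495 in edgeR) and 0.02 ± 0.05 in Dp16_2xIFNRs. Bace1 shares 975 exon bases with Rnf214 on the other strand, whose counts equalled 51.1% of those of Bace1. It also shares 951 with Gm49338 (13%) and 135 with Gm16536 (9.24%), both on the other strand. Reads in the shared bases cannot be told apart without strand, which also limits the ratios that use Bace1.

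The share of Bace2 in the summed RPKM of both beta-secretase relatives was 2.73% ± 0.927 in WT, 4.01% ± 1.09 in Dp16 and 4.93% ± 1.13 in Dp16_2xIFNRs (SD). The lowest WT share was 1.55% and the highest 3.70%. The 5 Dp16_2xIFNRs shares were 4.81%, 4.93%, 3.64%, 4.55% and 6.74%, so 4 of 5 lay above all WT mice. The difference from WT was 2.20 points in Dp16_2xIFNRs (exact permutation p = 0.00866, adjusted 0.0208) and 1.28 points in Dp16 (exact permutation p = 0.0758, adjusted 0.148). Without the 3 libraries lowest in choroid plexus markers, the first was 1.54 points with an adjusted exact permutation p of 0.0762, which misses the threshold of 0.05.

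The alpha-secretase and the gamma-secretase genes stayed within narrow ranges. Adam10 lay between 93.0 and 113 CPM in WT, 102 and 114 in Dp16, and 100.1 and 114 in Dp16_2xIFNRs, with log2 fold changes against WT of 0.06 ± 0.05 (-0.04 to 0.17) and 0.03 ± 0.05 (-0.08 to 0.14). Psen2 lay between 12.9 and 14.5 CPM in WT, 11.9 and 15.6 in Dp16, and 12.5 and 14.4 in Dp16_2xIFNRs. Its log2 fold changes were 0.03 ± 0.06 (-0.10 to 0.16) and -0.05 ± 0.07 (-0.18 to 0.09).

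Ncstn, the substrate-receiving subunit of gamma-secretase, lay between 54.0 and 59.8 CPM in WT, 51.2 and 60.8 in Dp16, and 54.0 and 61.2 in Dp16_2xIFNRs. Its log2 fold changes were 0.01 ± 0.05 (-0.10 to 0.11) and 0.04 ± 0.05 (-0.07 to 0.15). None of these 3 genes was called in any comparison, the groups overlapped for each, and every interval against WT lay below the value of a 1.5-fold change. Ncstn shares 195 exon bases with Copa on the other strand, which had a mean of 219 CPM and was not called either.

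**Figure D4:**
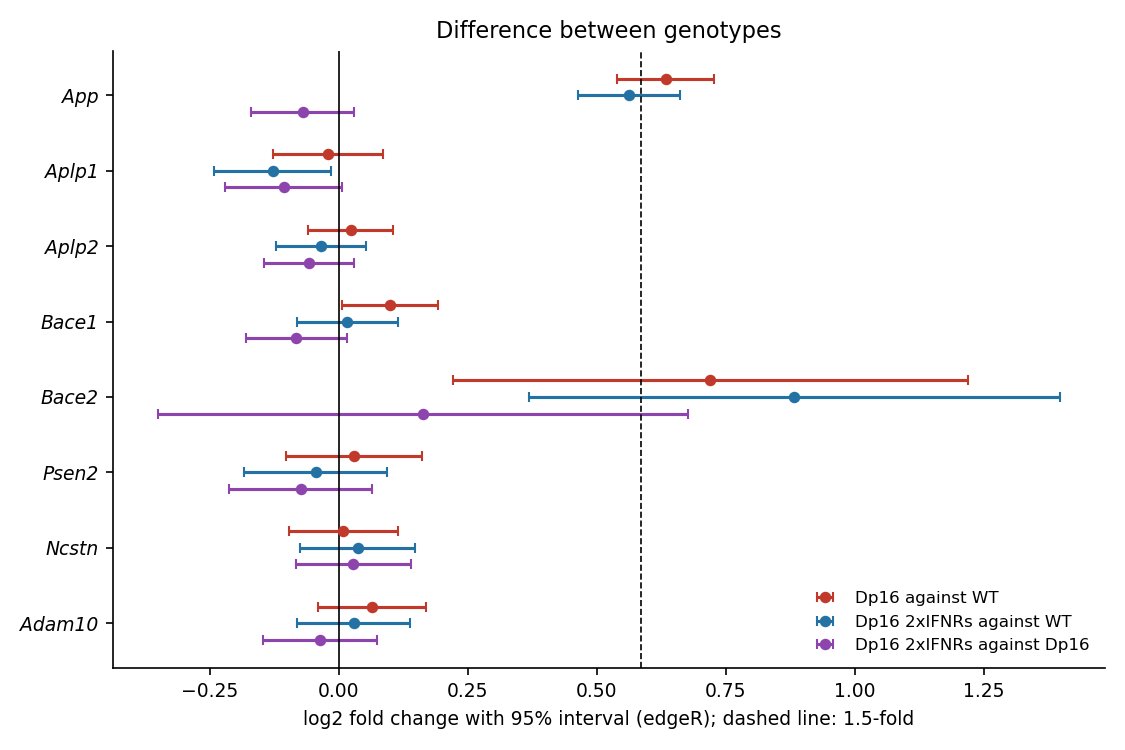
Log2 fold change of each gene with its 95% interval from edgeR in the 3 comparisons of genotypes; the solid line marks no change and the dashed line a 1.5-fold change. The intervals of App against WT cover the dashed line and exclude 0, those of Bace2 against WT cover it with a wide span, and those of the other 6 genes lie near 0.

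With 3 copies in place of the normal pair, a gene corresponds to a ratio of 1.5 if the RNA follows the copy number, and both segment genes were tested against that ratio. App departed from it by 0.05 ± 0.04 on the log2 scale in Dp16 (edgeR with an offset, adjusted p = 0.644 over the 122 tested segment genes) and by -0.02 ± 0.05 in Dp16_2xIFNRs (adjusted p = 0.816 in edgeR). Bace2 departed by 0.14 ± 0.24 and 0.30 ± 0.25 (edgeR adjusted p = 0.794 and 0.501). None of these passed the test, and none had an unadjusted p under 0.05, against 9.84% of the segment genes in Dp16 and 20.5% in Dp16_2xIFNRs. Of the segment genes, 1.64% departed in Dp16 and 10.7% in Dp16_2xIFNRs by the adjusted p. In the pooled comparison 8.20% did, App by 0.01 ± 0.04 and Bace2 by 0.22 ± 0.21, neither called. DESeq2 with the same offset called neither gene in any of the 3. The Bace2 departure moved with single libraries. In Dp16 it ranged from -0.07, without Dp16 replicate 4, to 0.25, without Dp16 replicate 1. It was 0.01 without WT replicate 5, 0.03 without WT replicate 6, 0.24 without Dp16 replicate 2, 0.22 without WT replicate 2 and 0.22 without WT replicate 4. In Dp16_2xIFNRs it ranged from 0.17, without Dp16_2xIFNRs replicate 5, to 0.40, without WT replicate 2, and was 0.19 without WT replicate 5. In the pooled comparison it ranged from 0.10 to 0.31, with 0.10 without WT replicate 5, 0.11 without Dp16 replicate 4 and 0.12 without WT replicate 6.

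The 101 segment genes at 1 CPM or more were ranked by fold change. App ranked 29th from the highest in Dp16 against WT, where its 0.63 lay between the segment median of 0.56 and the upper quartile of 0.65. In Dp16_2xIFNRs against WT it ranked 47th, close to the segment median of 0.55. Bace2 ranked 10th and 6th, and 4th in the pooled comparison, where App ranked 39th. The interval of Bace2 in that comparison, 0.36 to 1.25, also holds the segment median of 0.56, so its place in the ranking is loose.

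**Figure D5:**
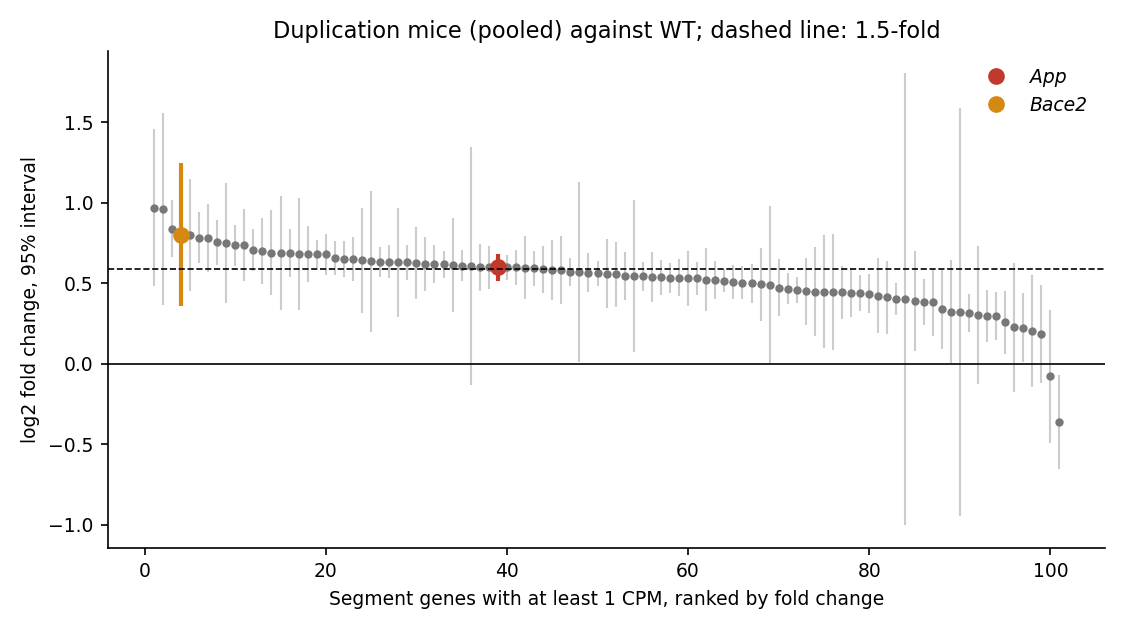
Log2 fold change of the mean of both duplication groups against WT for the 101 segment genes at 1 CPM or more, ranked from the highest, with 95% intervals from edgeR; the dashed line is 1.5-fold. App (red) ranks 39th with a narrow interval and Bace2 (orange) 4th with a wide one.

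The genes next to App had fold changes of similar size. Gabpa, a transcription factor subunit, had log2 fold changes of 0.59 ± 0.04 in Dp16 and 0.61 ± 0.04 in Dp16_2xIFNRs, and Atp5j, a subunit of the mitochondrial ATP synthase, had 0.56 ± 0.06 and 0.50 ± 0.06, all called by edgeR. On the other side of App, Adamts1, a secreted metalloprotease, had 0.54 ± 0.11 and 0.57 ± 0.11 (both called), and Cyyr1 had 0.54 ± 0.12 and 0.44 ± 0.13 (edgeR adjusted p = 0.0492 and 0.101).

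The genes next to Bace2 were less even. Dscam, a neuronal adhesion molecule, rose by 0.69 ± 0.06 and 0.61 ± 0.06. Pcp4, a calmodulin-binding protein, had 0.31 ± 0.18 and 0.10 ± 0.20 and was not called. On the far side, the low-expressed Mx2, an interferon-induced GTPase, had 0.81 ± 0.26 and 1.13 ± 0.27 (edgeR adjusted p = 0.278 and 0.0476), and Ripk4 had 1.18 ± 0.31 and 0.74 ± 0.33 (0.134 and 0.260).

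Sex did not separate the 8 genes. Between males and females, edgeR called 0 of 8 genes, beside 0.0685% of all tested genes, and none of the 8 had an unadjusted p under 0.05, against 3.26% of all genes. In a test of whether the effect of the duplication differed by sex, 0 of 8 were called in Dp16 against WT, in Dp16_2xIFNRs against WT and in the pooled comparison, where 0% of all genes were called in each. In the first of these, 2 of 8 had an unadjusted p under 0.05 and in the others none, against 2.98%, 2.73% and 3.01% of all genes.

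These 2 were Bace2 and Ncstn. The Dp16 effect in males minus that in females was 1.01 ± 0.43 on the log2 scale for Bace2 and -0.21 ± 0.09 for Ncstn (adjusted p = 1.00 in edgeR for both). WT females had a mean Bace2 level of 4.79 CPM and WT males 2.85 CPM, with 5.54 and 6.68 CPM in Dp16. In Dp16_2xIFNRs females had 8.06 CPM and males 5.76, so females were higher as in WT. There the Bace2 effect in males minus that in females was 0.26 ± 0.45. App had 1737 and 1769 CPM in WT females and males, 2674 and 2763 in Dp16, and 2603 and 2558 in Dp16_2xIFNRs.

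The spread between mice was small for all of the genes but Bace2. The biological coefficient of variation estimated by edgeR was 5.46% for Aplp2, 5.82% for App, 6.08% for Bace1, 6.66% for Adam10, 6.72% for Aplp1 and Ncstn, and 7.91% for Psen2, against a common value of 14.1%. For Bace2 it was 27.8%, higher than in 84.5% of tested genes. The standard error of the Dp16 fold change was accordingly 0.05 for App and 0.24 for Bace2.

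Within genotypes, some of the genes varied together from mouse to mouse. The values are Pearson correlations of log2 CPM deviations from the genotype mean over the 17 libraries, given as a description, since the points share their library and its scaling. The highest among the 28 pairs of the 8 genes was that of Bace1 and Adam10, at 0.82, followed by App and Bace1 at 0.55 and Bace1 and Bace2 at 0.51. The lowest was -0.49, for Aplp1 and Bace2.

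Likeness was ranked over 10010 genes with at least 10 CPM, leaving out clone, predicted and Rik names and mitochondrially encoded genes. Those most like App by this measure were Ostm1 (0.90), Pgk1 (0.90) and Impa1 (0.89). For Aplp1 they were Cenpb, Oaz1 and Eif3f (0.92 each), and for Aplp2 Klhl4 (0.85), Sgpp2 (0.82) and Nipsnap2 (0.81). For Bace1 they were Pcnx4 (0.88), B4galt6 (0.86) and Eif2s1 (0.86), and for Bace2 Ankrd6 (0.85), Nkap (0.84) and Fxr1 (0.83). For Adam10 they were Kbtbd7 (0.92), Macrod2 (0.88) and Zfp617 (0.87). For Psen2 they were Smpd1 (0.81), Glb1 (0.79) and Ergic3 (0.77), and for Ncstn Mospd1 (0.79), Stk39 (0.76) and Tpp1 (0.75). Smpd1, Glb1 and Tpp1 encode lysosomal enzymes.

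The wider pathway of App was followed in 53 genes of 7 lists, all tested: partners of gamma-secretase, other alpha-secretases, modulators of the secretases, adaptors of the App tail, sorting and uptake, peptide degradation, and cell surface partners. EdgeR called 0 of 53 in each of the 4 comparisons of genotypes. Of all tested genes it called 0.537% in Dp16 against WT and 0.980% in Dp16_2xIFNRs against WT. In Dp16_2xIFNRs against Dp16 it called 0.0158%, and in the pooled comparison 1.04%. The 0 of 53 lies close to these shares. With no filter on low counts, edgeR called 3 of the 53 in Dp16_2xIFNRs against WT, beside 1.17% of genes. An unadjusted p under 0.05 was found for 6 in Dp16 against WT, 8 in Dp16_2xIFNRs against WT, 8 in Dp16_2xIFNRs against Dp16 and 10 in the pooled comparison. Over all tested genes such a p was found for 9.58%, 17.04%, 10.5% and 14.6%. DESeq2 called 0, 4, 0 and 1 of the 53, beside 1.13%, 3.33%, 0.0316% and 2.64% of all genes, and limma-voom 0 in each. The median log2 fold changes of the 53 were 0.02 in Dp16 and 0.01 in Dp16_2xIFNRs, beside -0.01 and 0.00 over all tested genes.

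The 4 genes called by DESeq2 in Dp16_2xIFNRs against WT, named after their values were seen, were Cntn4 (edgeR log2 fold change -0.36, adjusted p = 0.0838), Slit1 (0.31, 0.101), Gsap (0.42, 0.101) and Reck (0.45, 0.0987). Cntn4 is an adhesion molecule that binds App, Slit1 a guidance ligand, Gsap an activator of gamma-secretase and Reck an inhibitor of membrane metalloproteases. Leaving out 1 library brought edgeR's count in that comparison to 1 (without WT replicate 2, WT replicate 5 or Dp16_2xIFNRs replicate 5) or 2 (without Dp16_2xIFNRs replicate 1). With all 17 libraries 0.980% of all genes were called there, and the shares in these smaller fits are not given.

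Of the 4 other subunit genes of gamma-secretase, 1 had a positive fold change in Dp16 and 2 in Dp16_2xIFNRs, and none was called by edgeR. Aph1a, the subunit that stabilises the complex, had a log2 fold change of -0.17 ± 0.06 in Dp16 (adjusted p = 0.290 in edgeR) and -0.12 ± 0.06 in Dp16_2xIFNRs (adjusted 0.313). Psenen, the subunit that triggers maturation of presenilin, had -0.15 ± 0.08 and -0.20 ± 0.09 (edgeR adjusted p = 0.585 and 0.259). Aph1b and Aph1c, relatives of Aph1a named after their values were seen, had 0.14 ± 0.06 and -0.02 ± 0.13 in Dp16, and 0.09 ± 0.06 and 0.11 ± 0.14 in Dp16_2xIFNRs. The median of the 4 was -0.09 in Dp16 and -0.01 in Dp16_2xIFNRs.

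In the other lists, the genes named by their level were not called by edgeR in either comparison with WT. Adam9 and Adam17, further sheddases of App, had 0.02 ± 0.04 and -0.09 ± 0.10 in Dp16. Itm2c and Itm2b, membrane proteins that bind App and hinder its cleavage, had 0.04 ± 0.05 and -0.03 ± 0.06. The tail adaptors Klc1 and Apbb1 had 0.05 ± 0.04 and 0.01 ± 0.05. Among the sorting genes, Vps35 of the retromer had 0.12 ± 0.05 (adjusted p = 0.495 in edgeR) and Sorl1, a sorting receptor of App, 0.09 ± 0.06, with 0.17 ± 0.06 in Dp16_2xIFNRs (adjusted p = 0.183). Cst3, a secreted protease inhibitor that binds amyloid-beta, had 0.09 ± 0.10, the lysosomal protease Ctsd -0.02 ± 0.08, and the proteoglycan Gpc1 -0.01 ± 0.07. Slit1, called by DESeq2 in Dp16_2xIFNRs, had 0.10 ± 0.08 in Dp16 and 0.31 ± 0.09 in Dp16_2xIFNRs.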

How the data were processed

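Each hippocampus gave 1 library of polyadenylated RNA, made with a kit that keeps the strand and read from both ends (150 bases), per the labels' protocols. Every library carries its own mouse identifier and was taken as a biological replicate. The submitters' processing notes name HTSeq 0.6.1, HISAT2 2.1.0, SAMtools 1.5 and FastQC 0.11.5, and the build GRCm38. The authors deposited a raw count per gene and an RPKM value per gene, and how strand was handled in counting and which gene length RPKM used are not given in the sources used here. The RPKM values followed from the counts: for 35644 genes the length they imply was the same in all libraries, within a relative spread of 6.54e-15.

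The counts went into edgeR 4.0.16 (R 4.3.3) with filterByExpr (minimum count 10), TMM scaling, and a quasi-likelihood fit of genotype and sex to all 17 libraries. Adjusted p-values are Benjamini-Hochberg values over 18983 tested genes, and a gene was called under 0.05. Standard errors were derived from the fold change and the F statistic. The pooled comparison sets the mean of both duplication groups against WT. The segment ran from Lipi to Zbtb21 (chr16:75540514-97962622, 384 genes), and 241 of 55385 identifiers had no position. Departure from a ratio of 1.5 used an offset. Ratios of RPKM were compared with two-sided exact permutation tests (scipy 1.17.1), 12 in all. Alternatives used DESeq2 1.42.0 and limma 3.58.1, other scalings, filters, covariates and samples. The code was tested on simulated data. Without molecular identifiers, copies of a molecule count more than once.

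The 8 genes, the 7 partner lists, the markers and the tests were chosen with earlier results of these data known. All 8 genes were named. From each partner list the genes called in any comparison were to be named, and otherwise the 2 with the highest mean RPKM. For App and Bace2 the 2 nearest tested genes with at least 1 CPM on each side were named. For likeness the 3 best correlated genes were named, with clone, predicted, Rik and mitochondrially encoded names left out.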

Additional observations from a re-analysis of the deposited data

Results flagged for a closer look

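The ratio of Adam10 to Bace1 RPKM in Dp16 replicate 4 was 1.20, set apart from the other 5 Dp16 mice, which lay between 1.25 and 1.28. Its gap to the nearest mouse was 0.685 of the range of the group, above the critical value of 0.625 for 6 mice. It was 1 of 36 groups of values examined in this way, and chance alone marks about 1 in 20. Dp16 replicate 4 also had the highest CPM of all 17 mice for Bace1, Adam10 and App, at 125, 114 and 2859. By RPKM its Adam10 level, 24.2, was below that of WT replicate 2, 24.9.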

How the results depend on the processing

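The rise of App in Dp16 against WT kept its call under all 35 alternatives (log2 fold change 0.61 to 0.65), and in Dp16_2xIFNRs against WT under 34 of 35 (0.53 to 0.58). With males only, 2 against 3 mice, the latter was 0.53 with an adjusted p of 0.166, and the count of called genes was 0. Leaving out each library in turn gave 0.62 to 0.65 and 0.54 to 0.58 for App, 0.51 to 0.84 and 0.76 to 0.98 for Bace2, and 0.68 to 0.90 for Bace2 in the pooled comparison (edgeR adjusted p 0.205 to 0.616, 0.0562 to 0.183 and 0.0605 to 0.207). The number of the 8 genes called became 2 in Dp16_2xIFNRs against WT and in the pooled comparison with DESeq2's test and with no filter, Bace2 being added. The Bace2 values were then 0.88 (adjusted p = 0.0163) and 0.80 (0.00756) in DESeq2, and 0.88 (0.0103) and 0.80 (0.00558) in edgeR with no filter. The cause was not tested. With females only, the Bace2 value in Dp16 was 0.21, with males only 1.22. On log2(RPKM + 1), which shrinks changes of low genes, Bace2 stood at 0.36 in Dp16_2xIFNRs and 0.31 in the pooled comparison.

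With group medians in place of means, the App share differed by 8.85 and 9.20 points and the App to Bace1 ratio by 4.94 and 5.23. The Bace2 share in Dp16_2xIFNRs against WT differed by 1.82 points. Each had an adjusted exact permutation p of 0.0623. For both App ratios the unadjusted permutation p was 0.0130 in Dp16 and 0.0260 in Dp16_2xIFNRs, although no mouse overlapped with WT. Mice nearest the other group can be exchanged without moving a median, so several regroupings tie with the observed one. The test on medians therefore cannot decide whether the App ratios lost support. The Bace2 share in Dp16_2xIFNRs differed from WT by 1.54 points (0.0762) without the 3 libraries lowest in choroid plexus markers, which leaves fewer mice. For the 6 genes outside the segment, 834 alternatives over 24 results gave 0 calls, values of -0.20 to 0.14 and 33 changes of sign between values that were not called.

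Replicate numbers showed no clear pairing of the mice. Same-numbered libraries had a mean correlation of deviations of 0.0772 over 16 pairs (-0.22 to 0.47), against -0.0141 over 80 other pairs. In 5 pairs from different groups, the mice share the second part of their identifier, whose meaning is not given. Their mean correlation was 0.0126 (-0.22 to 0.30). With the replicate block, App stood at 0.63 and 0.57 and Bace2 at 0.70 and 0.87, and no call changed.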
